A study of Tigriopus californicus with 4 samples.

Results

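The response of Santa Cruz (SC) *Tigriopus californicus*, a tidepool copepod, to a short heat stress was described contig by contig. The SC control animals were kept at 20 °C, and the SC heat stress animals were held at 35 °C for 1 h and then put back at 20 °C for 1 h. Each library was made from whole animals of all life stages, 300 to 400 individuals pooled. A San Diego (SD) population was treated in the same way, which gave 4 libraries in the study. Expression was given as RPKM, reads scaled by contig length and by the size of the library. A contig was kept when it carried a product name, when that name held no bracketed bacterial species, and when it reached 5 RPKM in at least 1 of the libraries. This left 11862 of the 20931 SC contigs, out of 41209 contigs with values in SC and SD. They carried 8900 different names, so several contigs can be pieces of the same gene or close copies of it. The names come from sequence similarity to proteins of other species, and no gene was checked beyond its name.

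There was 1 pooled library per condition. The spread between animals or pools is therefore unknown from these libraries, no test between conditions was possible and none is given. The authors also repeated the stress on additional samples and measured selected genes by quantitative PCR. Those values were not used here. The control libraries also ran in a different lane from the heat stress libraries, so lane and treatment cannot be told apart. Whole animals were ground, and a lower level can be fewer cells of a type, fewer animals of a stage or less RNA per cell, which cannot be told apart. Each ratio is followed by an exact Clopper-Pearson 95% interval from the reads behind it. The interval covers counting error only, since reads copied by PCR are not independent molecules, and says nothing about other pools.

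When cells are heated, proteins unfold, and heat shock factors switch on genes for molecular chaperones. The hsp70 and hsp90 proteins hold and refold clients using ATP, the small heat shock proteins keep unfolded proteins from clumping, and DnaJ (hsp40) proteins hand clients to hsp70. Damaged proteins that cannot be refolded are marked with ubiquitin and cut up by the proteasome. Many cells slow the making of other proteins while this lasts.

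The 11862 contigs had a median of 14.3 RPKM before any scaling in the control library, against 18.6 RPKM with heat stress. The median contig ratio, heat stress over control, was 1.25 (0.32 on the log2 scale), and 62.7% of the contigs had a higher RPKM after heat stress. Ratios are therefore given relative to this median and called relative ratios, so that 1 marks a contig that moved with the middle of the distribution. A contig was counted as having risen at a relative ratio of at least 2 and as having fallen at 0.5 or less. In these terms 11862 contigs gave 1880 that rose (15.8%) and 1548 that fell (13.1%). Taken as deposited, without the median, 2973 contigs were at least 2-fold higher (25.1%) and 708 were at 0.5 times or less (5.97%). The quartiles of the relative ratio were 0.640 and 1.61. The 52 gene lists described below, made from words in the names, held 2561 of the contigs.

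Depth set how firmly a single contig can be read. The library totals to which the RPKM values are scaled, recovered from the values themselves, were 3256758 reads for the control and 4948622 for heat stress. Whether these totals count all reads or only mapped reads is not stated in the files. The median contig had 54 and 104 reads. Of the contigs that rose, 996 had at least 10 control reads and 423 had only 1 to 3. The interval lay wholly above 2 in 314 contigs and wholly below 0.5 in 473. No contig was at 0 in the heat stress library, while 56 were at 0 in the control library and 21 of these had a bound past 2-fold, taken against a floor of 3 reads. The minimum of 5 RPKM was met in both libraries by 9395 contigs. It was met after heat stress alone by 2071, of which 1222 rose, and in the control alone by 396, of which 288 fell. Contigs of these latter groups were kept because of the library in which they were high, and their counts describe that choice as well as the treatment. The contig just inside the minimum had 3.58 and 5.000 RPKM, and the contig just outside it 3.20 and 4.999 RPKM.

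**Figure D1:**
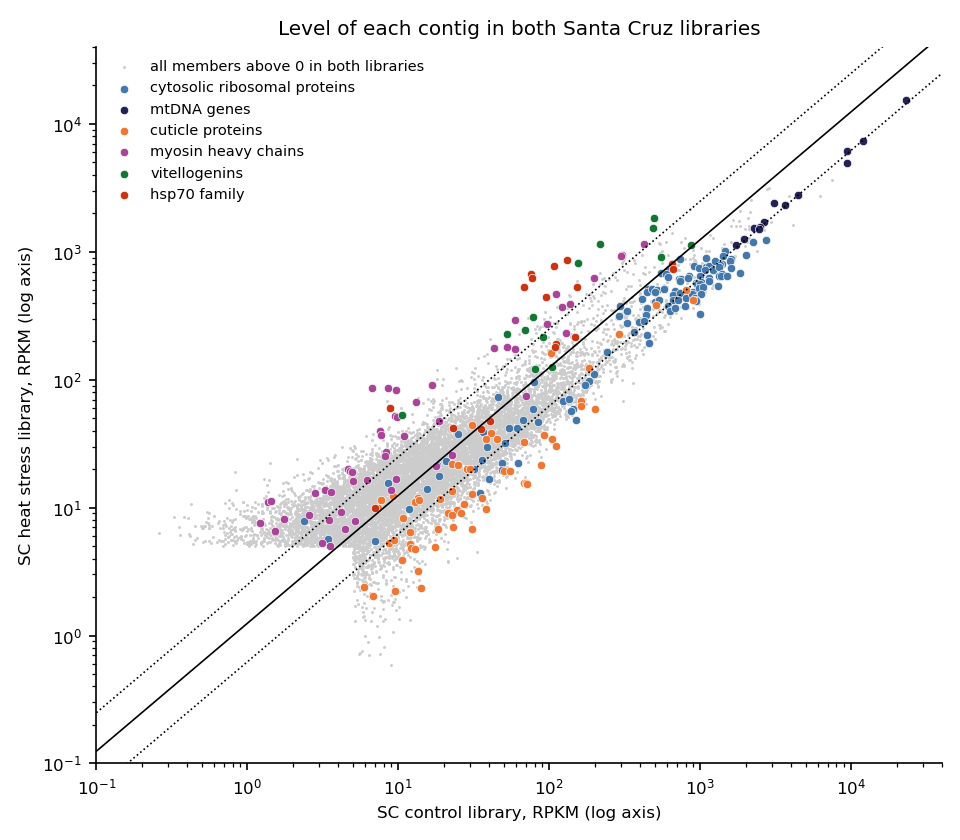
RPKM of each SC contig above 0 in both libraries, control on the horizontal and heat stress on the vertical log axis, with 6 gene lists in colour; the solid line is the median contig ratio of 1.25 and the dotted lines 2 times and 0.5 times that. The hsp70, vitellogenin and myosin heavy chain contigs lie on or above the solid line for the most part, and the ribosomal, mitochondrial DNA and cuticle contigs below it.

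The 12 contigs with the highest lower interval ends were led by heat shock proteins. SCN_Contig55802, named heat shock protein 70, had 75.7 RPKM in the control and 666 RPKM after heat stress, a relative ratio of 7.07 (95% interval 5.87 to 8.58). SCN_Contig63695, of the same name, went from 76.6 to 626 RPKM with a relative ratio of 6.56 (95% interval 5.35 to 8.14). Also among them were 2 inducible hsp70 contigs, SCN_Contig55707 and SCN_Contig47277, and SCN_Contig55746, named heat shock protein 71. The yolk contigs vitellogenin 1 (SCN_Contig62645) and vitellogenin 2 (SCN_Contig55671) were there too. The others were of mixed kinds. SCN_Contig55849, named pg1 protein, went from 8.39 to 68.6 RPKM on 17 control reads, a relative ratio of 6.56 (95% interval 4.0 to 11.5). A non-muscle or smooth muscle myosin heavy chain, SCN_Contig54450, went from 18.1 to 101 RPKM with a relative ratio of 4.49 (95% interval 3.61 to 5.64).

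The other 3 of these 12 were scarce in the control library. DNA methyltransferase 1c (SCN_Contig33024), of a family that copies methyl marks onto new DNA, went from 1.36 to 15 RPKM on 5 control reads, a relative ratio of 8.88 (95% interval 3.66 to 28). A zinc finger contig, SCN_Contig32610, had 1 control read and 39 heat stress reads, a relative ratio of 20.6 (95% interval 3.49 to 834). The contig SCN_Contig43801, named cg33519, had 0 control reads and 29 after heat stress, which made it at least 5.11-fold higher against the floor of 3 reads.

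Cuticle proteins made up 5 of the 12 contigs with the lowest upper interval ends. First in this order was galaxin-like 2 (SCN_Contig55783), which fell from 309 to 68.2 RPKM, a relative ratio of 0.177 (95% interval 0.151 to 0.207). A myosin light chain 2 contig, SCN_Contig49649, fell from 357 to 94.6 RPKM with a relative ratio of 0.213 (95% interval 0.187 to 0.242). Ribosomal protein P2 (SCN_Contig50156), part of the stalk of the large ribosomal subunit, fell from 1001 to 329 RPKM with a relative ratio of 0.264 (95% interval 0.244 to 0.285). The remaining contigs were tetraspanin d107, unc93-like mfsd11, dense panicle 1 and a contig similar to a conserved hypothetical protein, with relative ratios between 0.0932 and 0.261. Dense panicle 1 (SCN_Contig62818) was the most abundant of these 4 and went from 305 to 99.4 RPKM.

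The hsp70 family held 17 contigs, of which 8 rose and 0 fell (background 15.8% and 13.1%), with a median relative log2 of 0.55. The contigs that rose started at or below 153 RPKM in the control library. SCN_Contig55707, inducible heat shock protein 70, had 107 RPKM in the control and 776 RPKM after heat stress, a relative ratio of 5.81 (95% interval 4.98 to 6.80). SCN_Contig47277, also inducible heat shock protein 70, went from 67.7 to 530.5 RPKM with a relative ratio of 6.29 (95% interval 4.33 to 9.46). SCN_Contig55746, heat shock protein 71, went from 132 to 858 RPKM with a relative ratio of 5.23 (95% interval 4.24 to 6.53). These contigs were thus of the same order as the most abundant hsp70 contigs after the heat stress, from far lower control levels. SCN_Contig54416, named hsp70 cognate 4 after a protein that is made without stress in *Drosophila*, went from 94.9 to 444 RPKM with a relative ratio of 3.76 (95% interval 3.32 to 4.26). SCN_Contig55508, inducible heat shock protein 70, went from 153 to 533 RPKM with a relative ratio of 2.80 (95% interval 2.56 to 3.05). SCN_Contig47501, heat shock protein 70, rested on 4 control reads and went from 8.84 to 59.6 RPKM, a relative ratio of 5.42 (95% interval 1.96 to 20.8).

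The other 9 hsp70 contigs had relative ratios from 0.884 to 1.47. The most abundant hsp70 contigs of the control library were among them. SCN_Contig55684, heat shock protein 70, had 653 RPKM in the control and 799 RPKM after heat stress, a relative ratio of 0.982 (95% interval 0.924 to 1.04). SCN_Contig52304, heat shock protein 71, had 663 RPKM in the control and 729.7 RPKM after heat stress, a relative ratio of 0.884 (95% interval 0.759 to 1.03). The name alone did not divide the family, since SCN_Contig32823, chosen after its values were seen, was also named inducible heat shock protein 70 and had 40.4 RPKM in the control and 47.2 RPKM after heat stress, a relative ratio of 0.938 (95% interval 0.780 to 1.13). The highest of the 9 was hypoxia up-regulated protein 1 (SCN_Contig30852), an hsp70 relative of the endoplasmic reticulum, chosen after its values were seen, at 22.9 to 41.9 RPKM and a relative ratio of 1.47 (95% interval 1.27 to 1.69). Near-identical hsp70 copies can share reads, so the split of reads among contigs of this family is uncertain.

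The small heat shock list, made from names, moved in opposite directions by name. Of 14 contigs 5 rose and 4 fell, and the median relative log2 was 0.42. The contigs that rose were 4 of the 6 named heat shock protein beta-1 and the contig named hsp20 alpha-crystallin. SCN_Contig55664, the most abundant beta-1 contig, had 314 RPKM in the control and 876 RPKM after heat stress, a relative ratio of 2.24 (95% interval 2.09 to 2.40). SCN_Contig35096 went from 34 to 148 RPKM with a relative ratio of 3.50 (95% interval 2.88 to 4.28), SCN_Contig55500 from 38.5 to 159 RPKM with a relative ratio of 3.33 (95% interval 2.85 to 3.91), and SCN_Contig53317 from 17 to 65.6 RPKM with a relative ratio of 3.10 (95% interval 2.47 to 3.92). The hsp20 alpha-crystallin contig SCN_Contig49917 rested on 3 control reads and went from 12.3 to 53.9 RPKM, a relative ratio of 3.52 (95% interval 1.04 to 18.5). All 4 contigs named heat shock protein 67b2, after a *Drosophila* gene of the small heat shock locus, fell, and no other contig of the list did. Whether these 4 code for proteins of the small heat shock type was not checked. SCN_Contig40468, the most abundant contig of this list in the control library, had 898 RPKM in the control and 487 RPKM after heat stress, a relative ratio of 0.435 (95% interval 0.407 to 0.466). SCN_Contig40548 fell from 424 to 181 RPKM with a relative ratio of 0.343 (95% interval 0.305 to 0.385), SCN_Contig36033 from 87.5 to 50.2 RPKM with a relative ratio of 0.461 (95% interval 0.385 to 0.552) and SCN_Contig35511 from 53.2 to 33 RPKM with a relative ratio of 0.497 (95% interval 0.381 to 0.649). Without the median scaling only SCN_Contig40548 of these 4 was at 0.5 times or less.

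**Figure D2:**
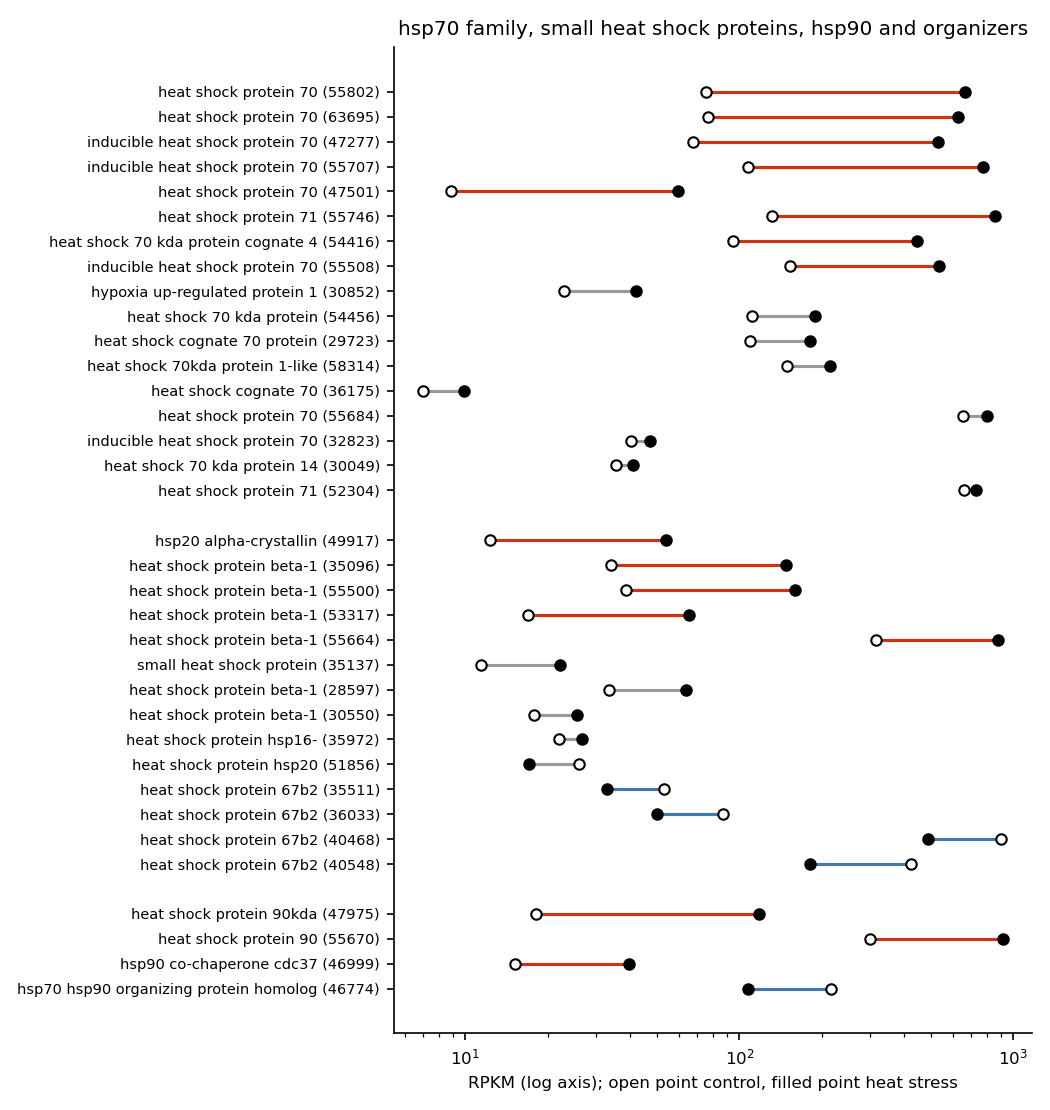
RPKM (log axis) of every contig of the hsp70 family, the small heat shock proteins and the hsp90 group, with an open point for the control library and a filled point for the heat stress library. Joining lines are red for contigs that rose, blue for those that fell and grey otherwise. Of 17 hsp70 contigs 8 rose and 0 fell. In the small heat shock list, made from names, 5 contigs rose and the 4 named heat shock protein 67b2 fell.

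The hsp90 contigs rose and their organizer fell. Heat shock protein 90 (SCN_Contig55670) had 299 RPKM in the control and 917 RPKM after heat stress, a relative ratio of 2.46 (95% interval 2.31 to 2.63). A shorter contig named heat shock protein 90kda (SCN_Contig47975) went from 18.2 to 118 RPKM on 10 control reads, a relative ratio of 5.23 (95% interval 2.73 to 11.2). Cdc37 (SCN_Contig46999), which brings kinases to hsp90, went from 15.1 to 39.7 RPKM with a relative ratio of 2.11 (95% interval 1.60 to 2.80). The hsp70/hsp90 organizing protein (SCN_Contig46774), which links these chaperones, fell from 216 to 108 RPKM, a relative ratio of 0.401 (95% interval 0.366 to 0.440).

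The DnaJ list of 7 contigs had 1 that rose and 1 that fell (14.3% each, near the 15.8% and 13.1% of all contigs). The list median of -0.21 was 0.11 without scaling. Dnaj 16 (SCN_Contig28725) rose from 18.1 to 46.4 RPKM, a relative ratio of 2.06 (95% interval 1.69 to 2.53), and a contig named chaperone protein dnaj (SCN_Contig35504) fell from 74.6 to 31.8 RPKM, a relative ratio of 0.343 (95% interval 0.293 to 0.400). Heat shock protein 40 (SCN_Contig34300), the most abundant, had 114 RPKM in the control and 149 RPKM after heat stress and a relative ratio of 1.04 (95% interval 0.968 to 1.13).

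The chaperonins, barrel-shaped folding machines of the cytosol and mitochondria, did not rise. Of 11 contigs 0 rose and 3 fell, the median relative log2 was -0.53, and all 11 relative ratios were below 1. The share that fell was 27.3%, beside 13.1% of all contigs. The 3 that fell had 325 to 743 RPKM in the control. Of all contigs with a mean of 200 to 500 RPKM 24.8% fell, and of those at 500 RPKM or more 35.5%. Against contigs of like level the list median was -0.35. The 10 kda heat shock protein (SCN_Contig46819), the lid of the mitochondrial chaperonin, fell from 743 to 303 RPKM, a relative ratio of 0.327 (95% interval 0.304 to 0.352). The cytosolic subunits t-complex protein 1 gamma (SCN_Contig54244) and cct2 (SCN_Contig29246) fell from 374 to 181 RPKM with a relative ratio of 0.389 (95% interval 0.366 to 0.413) and from 325 to 189 RPKM with a relative ratio of 0.468 (95% interval 0.440 to 0.498). The mitochondrial 60 kda heat shock protein (SCN_Contig39769), named after its values were seen, had 589 RPKM in the control and 403 RPKM after heat stress and a relative ratio of 0.549 (95% interval 0.526 to 0.572).

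Folding proteins of the endoplasmic reticulum were mostly above the median contig. Of 13 contigs 2 rose (15.4%, near the 15.8% of all contigs) and 0 fell, 10 were above the median and the list median was 0.68. Protein disulfide-isomerase 1 (SCN_Contig53604), which forms disulfide bonds, rose from 6.87 to 22 RPKM, a relative ratio of 2.56 (95% interval 1.91 to 3.49). A family member 4 contig (SCN_Contig28775) went from 4.80 to 12.4 RPKM on 16 control reads, with a relative ratio of 2.08 (95% interval 1.19 to 3.86). This contig was kept only through the heat stress library. The most abundant, protein disulfide isomerase (SCN_Contig35241), had 495 RPKM in the control and 763 RPKM after heat stress, a relative ratio of 1.24 (95% interval 1.19 to 1.29). The glucose-regulated protein of the hsp70 type (SCN_Contig28906), chosen after its values were seen, had 25.5 RPKM in the control and 60.7 RPKM after heat stress, a relative ratio of 1.91 (95% interval 1.67 to 2.20).

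Among transcription factors of the AP-1 and ATF families, which act early after stress, kayak (SCN_Contig29173), the fos of insects, rose from 17.3 to 68.3 RPKM with a relative ratio of 3.16 (95% interval 2.53 to 3.98). Jun B (SCN_Contig30332) had 14.2 RPKM in the control and 13.6 RPKM after heat stress, a relative ratio of 0.768 (95% interval 0.538 to 1.10). The contig named jun oncogene (SCN_Contig62801) was at 0 in the control library and 5.50 RPKM after heat stress on 4 reads, too few for a fold.

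Names of the ubiquitin system covered 156 contigs, of which 31 rose and 10 fell (19.9% and 6.41%, beside 15.8% and 13.1% of all contigs), with a median of 0.19. Contigs named for ubiquitin itself did not move together. The most abundant contig, named ubiquitin (SCN_Contig55676), fell from 1158 to 657 RPKM with a relative ratio of 0.456 (95% interval 0.430 to 0.483). The 4 contigs with polyubiquitin in their names, which code for chains of ubiquitin and were chosen after their values were seen, had higher RPKM after heat stress. SCN_Contig52625 rose from 130.5 to 364 RPKM, a relative ratio of 2.24 (95% interval 1.76 to 2.89), and SCN_Contig52635 from 11.7 to 39 RPKM, a relative ratio of 2.67 (95% interval 1.62 to 4.63). The more abundant SCN_Contig47076, at 311 RPKM in the control and 719 RPKM after heat stress, had a relative ratio of 1.86 (95% interval 1.66 to 2.07), and SCN_Contig47218, at 326 RPKM in the control and 698 RPKM after heat stress, had 1.72 (95% interval 1.57 to 1.88). Reads of such near-identical repeats may be split among these contigs. The carboxyl-terminal hydrolase 34 contig (SCN_Contig798), which takes ubiquitin off proteins, had 0 control reads and 25 heat stress reads and was at least 4.40-fold higher against the floor. The proteasome lay lower. Of its 38 contigs 2 rose and 12 fell, and the median was -0.56, but -0.03 when each contig was set against contigs of like level. A proteasome beta subunit (SCN_Contig36058) fell from 279.9 to 117 RPKM with a relative ratio of 0.336 (95% interval 0.300 to 0.375), and beta type-6 (SCN_Contig34983) from 281 to 107 RPKM with a relative ratio of 0.306 (95% interval 0.273 to 0.342). A proteasome activator contig (SCN_Contig30015), of the caps that open the barrel, rose from 5.74 to 16.5 RPKM, a relative ratio of 2.31 (95% interval 1.78 to 3.04).

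Antioxidant and glutathione enzymes were mostly below the median contig. Of 51 contigs 2 rose and 14 fell (3.92% and 27.5%, beside 15.8% and 13.1% of all contigs). The list median was -0.58 (-0.20 against contigs of like level). Superoxide dismutase (SCN_Contig40495), which removes superoxide, fell from 903 to 366 RPKM with a relative ratio of 0.325 (95% interval 0.302 to 0.350). Catalase (SCN_Contig29094), which breaks down hydrogen peroxide, rose from 16.8 to 42.8 RPKM with a relative ratio of 2.05 (95% interval 1.78 to 2.36). The ferritins, which store iron, had 7 of 12 contigs that fell and 1 that rose, with a median of -1.14 (-0.54 against like levels). Ferritin heavy chain 1 (SCN_Contig55716) fell from 1222 to 552 RPKM, a relative ratio of 0.363 (95% interval 0.344 to 0.383). A ferritin middle subunit contig (SCN_Contig47376) fell from 1983 to 1117 RPKM with a relative ratio of 0.452 (95% interval 0.395 to 0.518). The contig that rose, SCN_Contig58490, rested on 5 control reads and went from 5.67 to 27.6 RPKM.

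Apoptosis and autophagy names (36 contigs) gave 4 that rose and 6 that fell (11.1% and 16.7%, beside 15.8% and 13.1% of all contigs). The list median of 0.07 was -0.12 against contigs of like length. The autophagy-specific gene 2 contig (SCN_Contig35706) went from 4.98 to 18.9 RPKM with a relative ratio of 3.05 (95% interval 1.68 to 5.99), and an atg12-like contig (SCN_Contig56156) fell from 93.9 to 40.4 RPKM with a relative ratio of 0.346 (95% interval 0.240 to 0.495). MAP kinase and stress signalling names (27 contigs) had 2 that rose and 2 that fell, 7.41% each and below both shares over all contigs. An erk-type kinase (SCN_Contig28768) rose from 7.29 to 19.9 RPKM with a relative ratio of 2.20 (95% interval 1.67 to 2.93). The most abundant, a MAP kinase-interacting kinase (SCN_Contig28793), had 80.0 RPKM in the control and 168 RPKM after heat stress and a relative ratio of 1.68 (95% interval 1.56 to 1.82).

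Protein synthesis was read from the ribosome outward. The 118 contigs of cytosolic ribosomal proteins had 1 that rose and 53 that fell (44.9%, beside 13.1%), with a median of -0.94. Their levels were high, with a median of 612 RPKM in the control library and 424 RPKM after heat stress. The median was -0.45 against contigs of like level, a class that also held far scarcer contigs. All contigs of 500 RPKM or more had a median of -0.80. The most abundant (SCN_Contig47005, named ribosomal protein) fell from 2729.7 to 1233 RPKM, a relative ratio of 0.363 (95% interval 0.342 to 0.385). Ribosomal protein s6 (SCN_Contig28944) had the highest lower interval end, at 8.49 to 15.6 RPKM and a relative ratio of 1.47 (95% interval 0.980 to 2.26). Mitochondrial ribosomal proteins (56 contigs) had 1 that rose and 18 that fell, with a median of -0.72 (-0.48 against like levels).

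The factors that start and extend translation were nearer the median contig. Initiation factors (53 contigs) had 3 that rose (5.66%) and 8 that fell (15.1%, near the 13.1% of all contigs). The list median of -0.01 was 0.30 without scaling. A contig named eukaryotic translation initiation factor 4 (SCN_Contig61574), of the group that binds capped mRNA, rose from 19.3 to 64.9 RPKM, a relative ratio of 2.70 (95% interval 2.43 to 3.01). Initiation factor 6 (SCN_Contig62734), which keeps ribosomal subunits apart, fell from 490.5 to 219 RPKM with a relative ratio of 0.359 (95% interval 0.332 to 0.389). Elongation factor 1-alpha (SCN_Contig61398), which brings tRNA to the ribosome, had 2756 RPKM in the control and 3126 RPKM after heat stress, a relative ratio of 0.910 (95% interval 0.870 to 0.952). The aminoacyl-tRNA synthetases, which load tRNA, had 10 of 43 contigs that rose and 1 that fell. These were 23.3% and 2.33%, beside 15.8% and 13.1% of all contigs, and 6 of the 43 reached 5 RPKM only after heat stress. Leucyl-tRNA synthetase (SCN_Contig28632) rose from 11.2 to 33.6 RPKM, a relative ratio of 2.42 (95% interval 1.98 to 2.96).

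Splicing names (81 contigs) spread widely, with 13 that rose and 23 that fell and a median of -0.56 (-0.40 against like levels). The brr2 helicase (SCN_Contig32503), which unwinds spliceosome RNA, rose from 1.68 to 10.9 RPKM on 11 control reads, a relative ratio of 5.23 (95% interval 2.81 to 10.8). A small nuclear ribonucleoprotein contig (SCN_Contig62635) fell from 144 to 49.6 RPKM with a relative ratio of 0.276 (95% interval 0.227 to 0.334). Ribosome biogenesis names (40 contigs) had 6 that rose (15.0%) and 2 that fell (5.0%), and 5 of the 40 reached 5 RPKM only after heat stress. Fibrillarin (SCN_Contig55726), which methylates ribosomal RNA, fell from 576 to 309 RPKM, a relative ratio of 0.430 (95% interval 0.391 to 0.473).

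**Figure D3:**
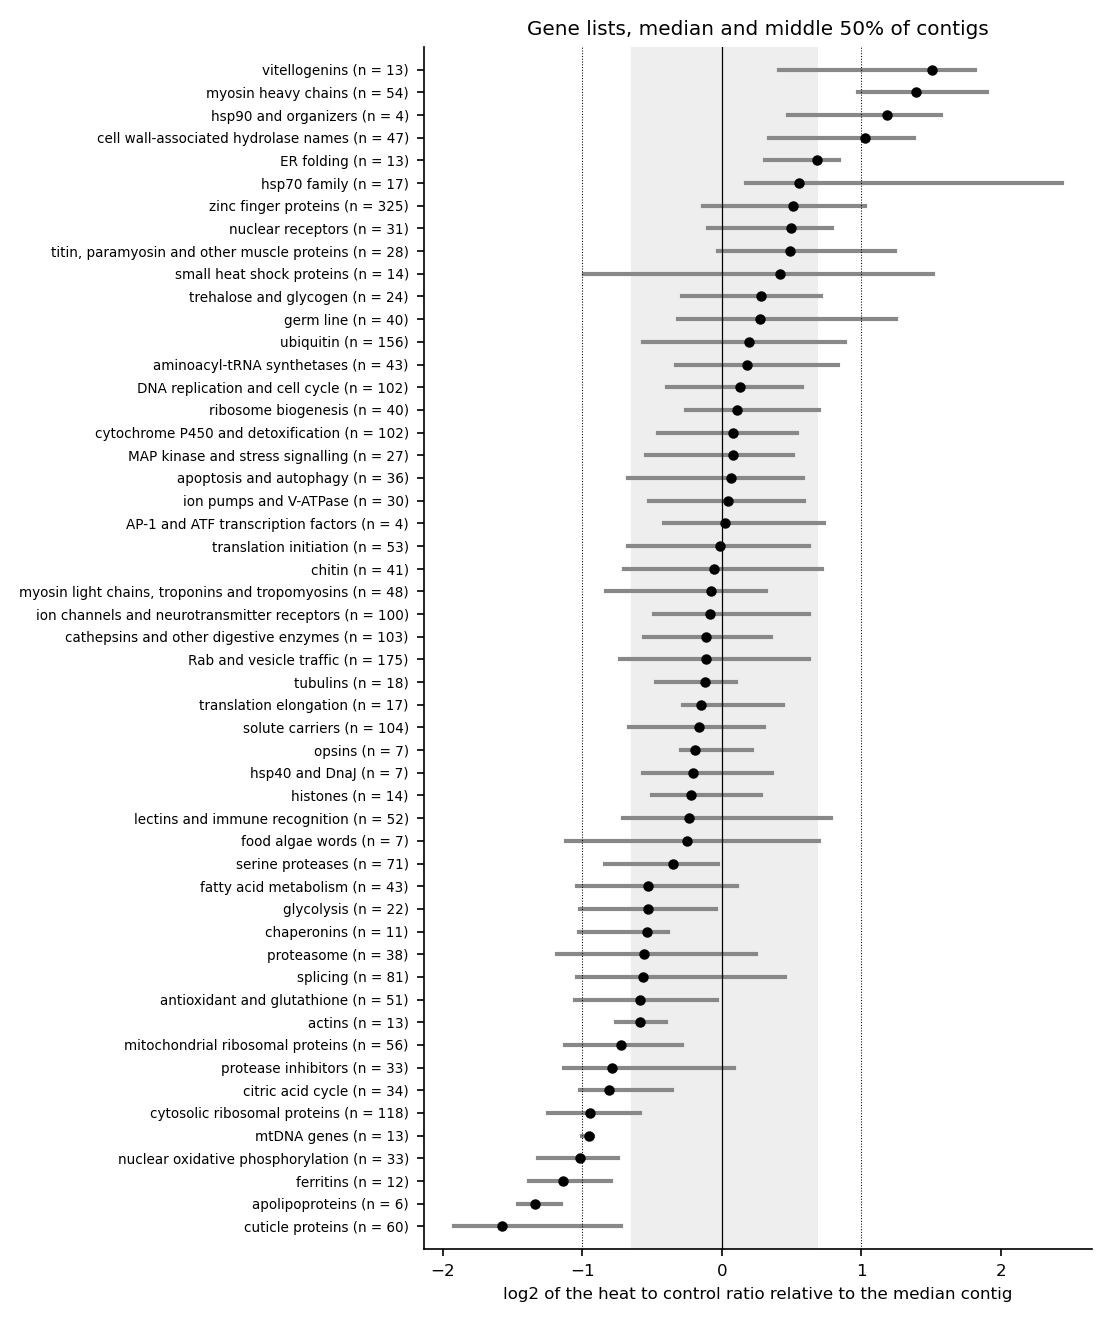
Median log2 relative ratio of each of the 52 gene lists (points, 0 = median contig), with grey bars from the lower to the upper quartile of its contigs, a shaded band for the quartiles of all contigs and dotted lines at 2-fold. Vitellogenins (1.51) and myosin heavy chains (1.40) are highest and cuticle proteins (-1.57) lowest.

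All 13 protein genes of mitochondrial DNA had lower RPKM after heat stress, with relative ratios between 0.423 (cytb) and 0.621 (ATP8), of which 4 were at 0.5 or less. Cytochrome c oxidase subunit I (cox1), the most abundant contig of either library, had 23173 RPKM in the control and 15464 RPKM after heat stress, a relative ratio of 0.536 (95% interval 0.531 to 0.540). Cytochrome b (cytb) fell from 9394 to 4954 RPKM with a relative ratio of 0.423 (95% interval 0.417 to 0.430). None was at 0.5 times or less without scaling, and the median of -0.95 was -0.35 against contigs of like level. That class also held contigs far below the level of these genes. All contigs of 500 RPKM or more had a median of -0.80.

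The nuclear genes of oxidative phosphorylation lay at a similar place. Of 33 contigs 0 rose and 18 fell, with a median of -1.02 (-0.42 against like levels). Cytochrome c oxidase subunit 6a1 (SCN_Contig63711) fell from 827 to 363 RPKM with a relative ratio of 0.352 (95% interval 0.324 to 0.382), and ATP synthase delta (SCN_Contig40408) from 573 to 238 RPKM with a relative ratio of 0.334 (95% interval 0.298 to 0.375). In the citric acid cycle list, 9 of 34 contigs fell and 1 rose, with a median of -0.81 (-0.34 against like levels). Mitochondrial malate dehydrogenase (SCN_Contig35435) fell from 556 to 259.6 RPKM with a relative ratio of 0.375 (95% interval 0.352 to 0.399). Glycolysis had 0 of 22 that rose and 6 that fell (27.3%), beside 15.8% and 13.1% of all contigs. Those that fell had control levels from 12.4 to 635 RPKM. The list median of -0.53 was -0.15 against like levels. Triosephosphate isomerase (SCN_Contig63670) fell from 635 to 309 RPKM with a relative ratio of 0.391 (95% interval 0.358 to 0.426), while glyceraldehyde 3-phosphate dehydrogenase (SCN_Contig55700), the most abundant, had 2106 RPKM in the control and 1596 RPKM after heat stress and a relative ratio of 0.608 (95% interval 0.592 to 0.625).

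Among fatty acid enzymes (43 contigs) 3 rose and 12 fell, with a median of -0.53 (-0.35 against like levels). Dienoyl reductase (SCN_Contig61860), of mitochondrial fat breakdown, fell from 118 to 51.9 RPKM, a relative ratio of 0.354 (95% interval 0.311 to 0.402). A contig of acetyl-CoA carboxylase (SCN_Contig62871), the enzyme that commits carbon to fat synthesis, had 1 control read and 22 heat stress reads, a relative ratio of 11.6 (95% interval 1.88 to 479.7). Names of trehalose, the blood sugar of insects, and of glycogen (24 contigs) had 3 that rose and 4 that fell, with a median of 0.28. These were 12.5% and 16.7%, near the 15.8% and 13.1% of all contigs. Glycogenin (SCN_Contig35069), which starts glycogen chains, was the most abundant and had 189 RPKM in the control and 275 RPKM after heat stress, a relative ratio of 1.17 (95% interval 1.08 to 1.26).

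Yolk genes had the highest median of the 52 lists. Vitellogenins, the yolk precursors that females load into eggs, had 8 of 13 contigs that rose and 0 that fell, with a median of 1.51. Vitellogenin 1 (SCN_Contig62645) had 155 RPKM in the control and 817 RPKM after heat stress, a relative ratio of 4.23 (95% interval 3.91 to 4.58). The most abundant, vitellogenin 2 (SCN_Contig55692), went from 494 to 1849 RPKM with a relative ratio of 3.01 (95% interval 2.93 to 3.09). A vitellogenin-like contig (SCN_Contig54343), with the highest control level of the list, had 873 RPKM in the control and 1122 RPKM after heat stress and a relative ratio of 1.03 (95% interval 1.01 to 1.05). The list's summed level went from 3263 to 8668 RPKM. The share of egg-bearing females in each pool is not given, and its part in this was not tested. The apolipoprotein list held 6 contigs, all named apolipoprotein D or apolipoprotein D-like, of which 5 fell and 0 rose. Apolipoprotein D (SCN_Contig30513) fell from 153 to 67.4 RPKM, a relative ratio of 0.354 (95% interval 0.305 to 0.411).

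Cuticle proteins, which form the outer shell with chitin and are made in moulting stages, had 40 of 60 contigs that fell and 0 that rose, with a median of -1.57. Without scaling, 35 were at 0.5 times or less. The most abundant (SCN_Contig54518) fell from 896 to 422 RPKM, a relative ratio of 0.378 (95% interval 0.351 to 0.407). SCN_Contig56482 fell from 71.4 to 15.2 RPKM with a relative ratio of 0.171 (95% interval 0.110 to 0.258), and SCN_Contig41628 from 88.5 to 21.7 RPKM with a relative ratio of 0.196 (95% interval 0.143 to 0.267). SCN_Contig57275 fell from 202 to 59.5 RPKM, SCN_Contig58177 from 68.3 to 15.5 RPKM and SCN_Contig40907 from 70.5 to 15.7 RPKM. Of the 5 contigs above the median, flexible cuticle protein 12 (SCN_Contig35162) had the highest lower interval end, with 103 RPKM in the control and 161 RPKM after heat stress and a relative ratio of 1.26 (95% interval 1.13 to 1.41).

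Chitin names (41 contigs) did not share this, with 5 that rose and 6 that fell. These were 12.2% and 14.6%, near the 15.8% and 13.1% of all contigs. Chitin synthase (SCN_Contig32230) rose from 8.72 to 42.7 RPKM, a relative ratio of 3.93 (95% interval 3.14 to 4.97), and a chitinase domain contig (SCN_Contig28730) fell from 69.6 to 31.3 RPKM with a relative ratio of 0.361 (95% interval 0.302 to 0.430). Peritrophic membrane protein 1 (SCN_Contig35052), of the gut lining, had 337 RPKM in the control and 347 RPKM after heat stress and a relative ratio of 0.826 (95% interval 0.777 to 0.879). The mix of moulting stages in each pool was not tested.

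Myosin heavy chains, the motors of muscle and of cell movement, had 40 of 54 contigs that rose and 0 that fell (74.1%, beside 15.8%), with a median of 1.40. Of these 40, 23 had at least 10 control reads, and 20 of the 54 reached 5 RPKM only after heat stress. The most abundant, a muscle heavy chain (SCN_Contig51655), had 423 RPKM in the control and 1148 RPKM after heat stress, a relative ratio of 2.18 (95% interval 1.88 to 2.52). Another (SCN_Contig40565) had 3 control reads and went from 6.72 to 85.6 RPKM with a relative ratio of 10.2 (95% interval 3.33 to 51), and SCN_Contig63175 had 69.8 RPKM in the control and 74 RPKM after heat stress with a relative ratio of 0.851 (95% interval 0.684 to 1.06). These contigs are short, 556 bp at the median as a lower bound, so several may be pieces of the same gene.

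Other muscle lists were mixed. Myosin light chains, troponins and tropomyosins (48 contigs) had 2 that rose and 10 that fell, with a median of -0.08 (0.24 without scaling). Troponin (SCN_Contig46944), which makes contraction sensitive to calcium, had 410.4 RPKM in the control and 944 RPKM after heat stress and a relative ratio of 1.85 (95% interval 1.78 to 1.92). The most abundant myosin light chain 2 contig (SCN_Contig63639) had 1437 RPKM in the control and 1158 RPKM after heat stress and a relative ratio of 0.647 (95% interval 0.616 to 0.679). Of titin, paramyosin and like names (28 contigs) 9 rose and 1 fell. Paramyosin (SCN_Contig29911), the core of invertebrate thick filaments, rose from 112 to 367 RPKM with a relative ratio of 2.63 (95% interval 2.48 to 2.78), and tropomodulin (SCN_Contig53250), which caps actin filaments, fell from 254 to 152 RPKM with a relative ratio of 0.479 (95% interval 0.452 to 0.508). Actins had 0 of 13 that rose and 3 that fell, and beta actin (SCN_Contig62593) fell from 1636 to 814 RPKM, a relative ratio of 0.399 (95% interval 0.388 to 0.411).

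**Figure D4:**
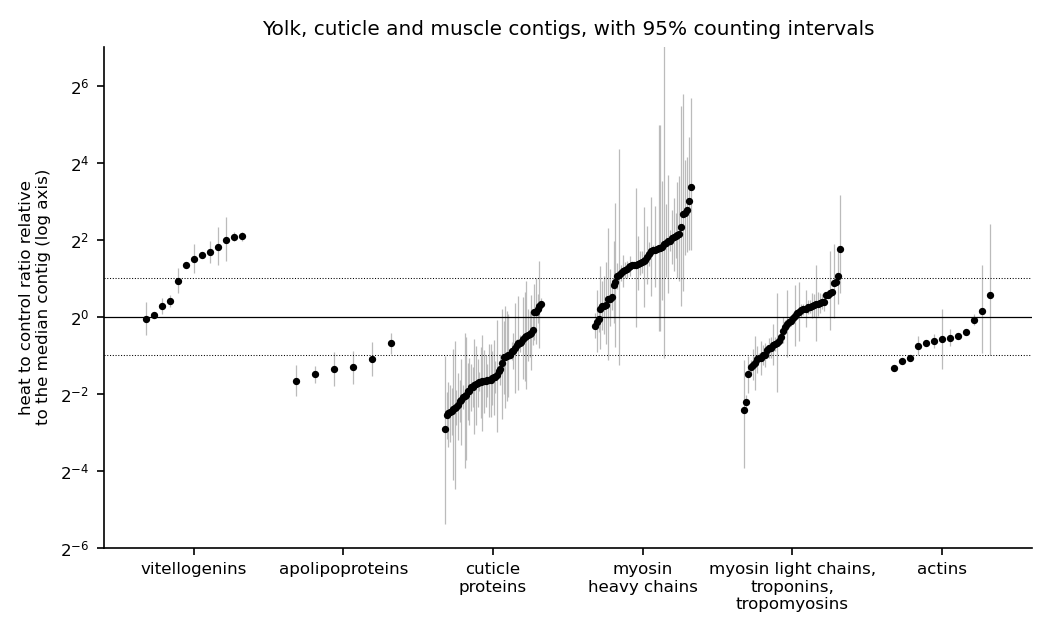
Relative ratio (log axis, 1 = median contig) of each contig above 0 in the control library, in 6 lists of yolk, cuticle and muscle names, with 95% counting intervals (cut at the axis ends); dotted lines mark 2 and 0.5. Most vitellogenin and myosin heavy chain points lie above 1, and 40 of 60 cuticle contigs lie at 0.5 or less.

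Lists also stood for the gut, the eye and the germ line. Serine proteases (71 contigs) had 1 that rose and 10 that fell (14.1%, near the 13.1% of all contigs), and cathepsins and other digestive enzymes (103 contigs) 4 and 9. Alpha amylase 2 (SCN_Contig40403), the starch-cutting enzyme that was most abundant there, had 781 RPKM in the control and 608 RPKM after heat stress and a relative ratio of 0.625 (95% interval 0.599 to 0.651). Opsins and arrestins of the eye had 0 of 7 that rose and 1 that fell, and the UV opsin (SCN_Contig55727) had 917 RPKM in the control and 941 RPKM after heat stress and a relative ratio of 0.824 (95% interval 0.777 to 0.873). Germ line names (40 contigs) had 13 that rose (32.5%) and 1 that fell (2.5%), beside 15.8% and 13.1% of all contigs. Of the 40, 9 reached 5 RPKM only after heat stress. Contigs that rose included some named nuclear autoantigenic sperm protein and oocyte zinc finger protein. Vasa (SCN_Contig62585), a helicase of germ cells, was the most abundant of the 40 and had 405 RPKM in the control and 403 RPKM after heat stress, a relative ratio of 0.798 (95% interval 0.759 to 0.840). Another vasa contig (SCN_Contig46563) had 0.872 (95% interval 0.819 to 0.930) and protein nanos (SCN_Contig54472) 1.15 (95% interval 1.06 to 1.25). Both were chosen after their values were seen. Protease inhibitors had 12 of 33 contigs that fell and 4 that rose, among them alpha-2-macroglobulin (SCN_Contig32368), a broad protease trap, at 10.3 to 55 RPKM and a relative ratio of 4.28 (95% interval 3.36 to 5.52).

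In the nucleus, zinc finger proteins (325 contigs) had 84 that rose and 14 that fell (25.8% and 4.31%), with a median of 0.51. They were scarce, at a median of 6.75 RPKM in the control library, and 124 of them reached 5 RPKM only after heat stress. Against contigs of like level the median was 0.22. Nuclear receptors and ecdysone names (31 contigs) had 7 that rose and 3 that fell, and 13 of the 31, the contig named next among them, were kept only through the heat stress library. Ecdysone inducible protein 75 (SCN_Contig61468), an early gene of the moulting hormone in insects, rose from 2.25 to 11.1 RPKM, a relative ratio of 3.97 (95% interval 2.56 to 6.44). Replication and cell cycle names (102 contigs) had 14 that rose (13.7%) and 4 that fell (3.92%), beside 15.8% and 13.1% of all contigs. DNA topoisomerase 1 (SCN_Contig30960), which relaxes coiled DNA, rose from 8.60 to 40.9 RPKM with a relative ratio of 3.81 (95% interval 2.91 to 5.08), while cyclin B (SCN_Contig55724) had 292 RPKM in the control and 361 RPKM after heat stress and a relative ratio of 0.992 (95% interval 0.931 to 1.06). Histone contigs, 14 in all, had 1 that rose and 2 that fell.

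Membrane and defence lists lay near the median contig, as did 175 vesicle traffic contigs (28 rose and 24 fell) and 18 tubulins (0 rose and 2 fell). Over all contigs 15.8% rose and 13.1% fell. Solute carriers (104 contigs) had 8 that rose and 12 that fell and a median of -0.16, which was 0.15 without scaling. A neutral amino acid transporter (SCN_Contig53425) rose from 5.40 to 18.2 RPKM, a relative ratio of 2.71 (95% interval 2.09 to 3.55). Ion channels and neurotransmitter receptors (100 contigs) had 15 that rose and 11 that fell. The acetylcholine receptor subunit alpha-3 contig (SCN_Contig55728), of the channels that answer acetylcholine, had 747 RPKM in the control and 1205 RPKM after heat stress and a relative ratio of 1.30 (95% interval 1.23 to 1.36). Ion pumps (30 contigs) had 5 that rose and 2 that fell (16.7% and 6.67%), and 6 of the 30 reached 5 RPKM only after heat stress. The sarcoplasmic calcium pump (SCN_Contig28734) rose from 52 to 133 RPKM with a relative ratio of 2.06 (95% interval 1.79 to 2.36). Detoxification names (102 contigs) were even, with 13 that rose and 13 that fell. Lectins and immune names (52 contigs) had 10 that rose and 6 that fell (19.2% and 11.5%). Of the 52, 13 reached 5 RPKM only after heat stress, the contig named next among them. A toll-like receptor (SCN_Contig31961) rose from 4.44 to 16.6 RPKM with a relative ratio of 3.0 (95% interval 2.11 to 4.38).

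Some of the kept names are not those of animal genes. Contigs named cell wall-associated hydrolase, a name that protein databases often carry for translated bacterial ribosomal RNA, had 25 of 47 that rose and 0 that fell, with a median of 1.03. SCN_Contig48380 went from 40.5 to 208 RPKM, a relative ratio of 4.12 (95% interval 2.54 to 7.03), and the most abundant, SCN_Contig49262, had 780.3 RPKM in the control and 1068 RPKM after heat stress and a relative ratio of 1.10 (95% interval 0.986 to 1.23). Plant and algal words (7 contigs) had 2 that rose and 3 that fell, and a chlorophyll a-b binding contig (SCN_Contig40925), of the light-harvesting complex, rested on 3 control reads and went from 4.24 to 29.8 RPKM. The animals were flushed in filtered seawater before the stress.

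Ratios varied with level and length. Contigs under 10 RPKM on average had a median relative log2 of 0.52 (n = 3763), those of 20 to 50 RPKM -0.23 and those of 500 RPKM or more -0.80 (n = 228). In the lowest class 30.9% rose, and in the highest 35.5% fell. By length, contigs under 500 bp had a median of -0.02 and those of 3000 bp or more 0.56 (n = 744). Over the 11862 contigs Spearman's rho of the ratio was -0.393 with level and 0.124 with length, as a description of contigs that share both libraries and are not replicates. A ratio and a mean built from the same values are linked by counting error at low counts. The lists of abundant contigs above, such as ribosomal, mitochondrial and chaperonin names, and the scarce zinc finger names move with level in this way. The part of level in them was not tested beyond the values given against contigs of like level. Those values used 10 classes of mean RPKM, and the top class was wide, so the most abundant lists were matched only roughly.

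**Figure D5:**
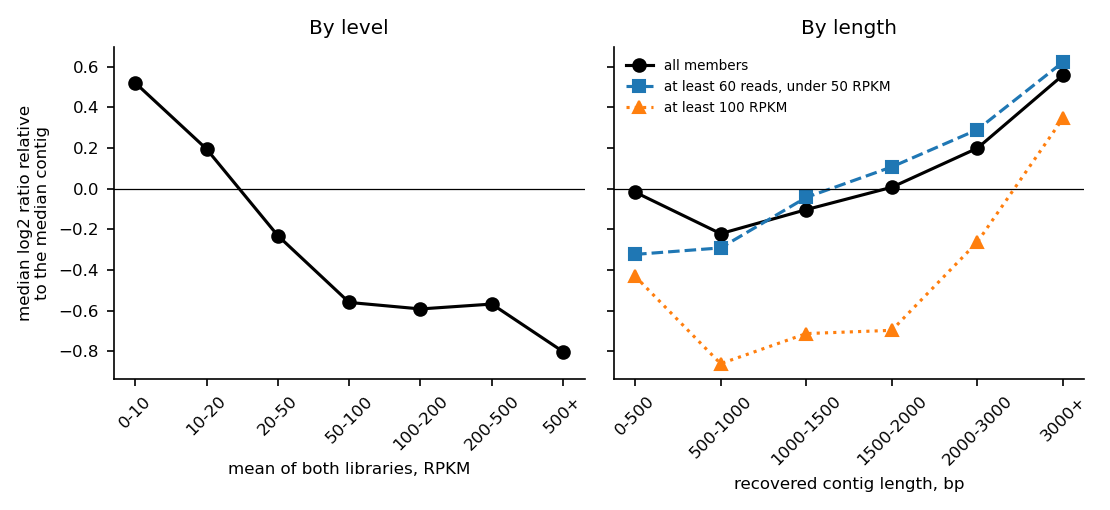
Median log2 relative ratio by class of mean RPKM (left) and of recovered contig length (right), the latter also for contigs with at least 60 reads under 50 RPKM and for contigs of at least 100 RPKM. The median drops from 0.52 under 10 RPKM to -0.80 at 500 RPKM or more, and reaches 0.56 in contigs of 3000 bp or more.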

How the data were processed

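Pooled SC animals of a control and a heat stress treatment were sequenced as 1 library each. The authors mapped reads to an assembly of the same population with CLC Genomics Workbench, named contigs by their best BLASTX hit, and deposited RPKM values per contig; no raw counts were used here. Whole reads were recovered from the RPKM steps: 100% of the 20931 SC contigs came out whole, within a relative 3e-09, with totals of 3256758 and 4948622 reads. Read numbers and contig lengths found this way are lower bounds. On simulated data 83.8% of 1936 contigs had the exact reads back and 0 came out above them.

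For each kept contig, the heat stress RPKM was divided by the control RPKM and by the median contig ratio. A contig was past the fold at 2 or 0.5. Clopper-Pearson 95% intervals used the split of recovered reads, with the median taken as fixed. A contig at 0 control reads was set to a floor of 3 reads. With 1 library per condition no p-value was computed.

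Gene lists were made from words in the product names. The contigs and lists were chosen with earlier results of these data known, and list words were corrected and some lists split after values had been seen, so no list is independent evidence. The contigs named are the 12 with the highest lower and the 12 with the lowest upper interval ends, in each list the most abundant contig and those with the highest lower and lowest upper end, every chaperone past 2-fold, and a few stated to be chosen after their values were seen. Not every contig this rule names is printed. Alternatives were other scalings, minimums, 1 RPKM added, at least 10 reads in both libraries, 1 contig per product name and bacterial names kept. Python 3.11.15, numpy 2.4.6, pandas 2.3.3, scipy 1.17.1 and matplotlib 3.10.9 were used.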

Additional observations from a re-analysis of the deposited data

Results flagged for a closer look

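The cuticle proteins had a median relative log2 of -1.57 in SC (60 contigs) and 0.90 in SD (65 contigs), each relative to the median contig of its own population. The cell wall-associated hydrolase names had 1.03 in SC (47 contigs) and -0.96 in SD (49 contigs). Both lists had opposite signs in the populations, with 1 library per condition in each, and the difference was not tested. The 296 SC contigs with a bracketed bacterial name, which were left out of the comparison, had a median of 1.03, with 150 that rose and 13 that fell, and their summed level went from 30017 to 50132 RPKM.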

How the results depend on the processing

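The count of contigs that rose, 1880, was 2973 without scaling and 1029 with 5 RPKM required in both libraries. The count that fell, 1548, was 708 without scaling, 796 with 5 RPKM in both libraries and 993 with at least 10 recovered reads in both. These minimums remove contigs that could be counted, so fewer remain. The median of the solute carriers, -0.16, was 0.15 without scaling. Of the 52 list medians, 14 changed sign without scaling, 5 with 5 RPKM in both libraries, 4 with at least 10 reads in both, 1 with 1 contig per name, 0 with 1 RPKM added and 0 with the trimmed mean. Scalings to contigs of like length or like mean RPKM (10 classes each), chosen after seeing the data, changed 5 and 11 signs, with 1898 and 1428 contigs that rose and 1317 and 1262 that fell. Low counts limit the contigs with few control reads most. No paired analysis was possible because each condition had 1 library. No replicate could be left out for the same reason.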
